A study of Mus musculus with 4 samples.

Results

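The messenger RNAs of 46 RNA-binding proteins of the mouse brain were followed on arrays that measured RNA recovered with an antibody against CPEB2. They are regulators of mRNA stability, transport, translation and splicing outside the CPEB family, and were taken by gene symbol from the 24164 gene symbols on the array. The 46 genes had 97 probes, 12 genes with 1 probe and 34 with several. For 44 of them at least 1 probe was well above background, as marked by the scanner software, on at least 2 of the 4 arrays. The other 2, Igf2bp1 and Igf2bp3, which bind mRNAs during development, were not well above background on any array, with signals between 3.59 and 11.4.

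RNA immunoprecipitation recovers the RNA held by a protein together with the protein, and an unrelated IgG gives the background. Male C57BL/6 mice 8 weeks of age gave the cortical and hippocampal lysate, which was split and incubated for 3 hours with beads carrying CPEB2 IgG or control IgG, in 2 experiments, which gave 2 arrays for each antibody. No genotype or treatment other than the antibody separated the groups, the sources used here do not state how many animals went into a lysate, and no array of the input RNA is analysed here. CPEB3 IgG appears in the description field of the samples used as CPEB2 IgG, but CPEB2 is given in their titles, in the protocol and in the paper.

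CPEB proteins bind short U-rich elements near the end of mRNAs, the cytoplasmic polyadenylation elements (CPEs), and hold an mRNA silent or let it be translated by controlling the length of its poly(A) tail. RNA-binding proteins of neurons work in the same compartments, where they package mRNAs into transport granules, protect or destroy them and choose their exons. Many of them act through elements in the same part of the mRNA that CPEB proteins use, and their own mRNAs carry long regulatory ends.

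All 4 arrays lay on 1 slide, with 68.4% to 74.1% of each array's spots well above background. The antibodies were hybridized at separate positions of it, and the effect of position cannot be told apart from that of the antibody. The markers of neurons, astrocytes, oligodendrocytes and microglia, 6, 5, 5 and 5 genes, were well above background on every array, as were 3 of the 4 endothelial markers. Of the 3 liver genes, Alb and Apoa1 were not above background on any array, and Ttr, which the choroid plexus also makes, was well above it on all 4. The Ttr signals were 6966 (CPEB2 IgG) and 11608 (control IgG) in experiment 1 against 291 and 289 in experiment 2, so Ttr was far higher in experiment 1 with both antibodies. Summed signals of the neuronal markers ranged from 74206 to 76783 with CPEB2 IgG and from 81671 to 87590.2 with control IgG, those of the astrocyte markers from 29936 to 32177 and from 14668 to 19261, those of the oligodendrocyte markers from 55839 to 57993 and from 47673 to 63193, and those of the microglial markers from 15480 to 16558 and from 15809 to 25626. The members of a list did not move together. Slc1a3, an astrocyte glutamate transporter, made up most of the astrocyte sum with CPEB2 IgG at 28729 and 26888 against 3302 and 2133 (control IgG), while Aldh1l1 had a log2 fold change of -3.77, and among the neuronal markers Map2 was at 2.43 and Tubb3 at -1.50. The neuronal markers Gad1 and Camk2a, at -0.04 and 0.10, hardly differed between the antibodies. Every marker of these 4 cell types gave a signal on every array, and the part of cell type in the results below was not tested. A level in a lysate of whole tissue does not tell the number of cells of a type from the RNA in each, and both antibodies of an experiment drew on the same divided lysate.

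The probes of the array are 60 bases long and read in the direction of the mRNA. The letters TTTTAT or TTTTAAT, the DNA form of the CPE, were searched on the mRNA strand of the probe only. They were present in 9 of the 97 probes (9.28%), against 1726 of the 33215 probes with a gene symbol. The stretches of 30 bases around them are shown because the hexamer is what CPEB proteins are known to bind, with the element in capitals. They come from 8 genes, and Tardbp has such letters in 2 probes.
Msi1: ctccctggtcgcTTTTATttatttttggat
Pcbp1: atccatatttagTTTTATaagcttttccct
Pcbp2: atccatatttagTTTTATaagcttctcccc
Qk: tttatcaaaggtcTTTTATggggaagaaag
Rbfox3: tatcaggatggaTTTTATggtgctgagatt
Tardbp: gcttggatgcttTTTTATaagagttgtcat
Tardbp: aattTTTTATgcttgcctagttataaggtc
Zfp36: attgtattaagaTTTTATagtatttatata
Zfp36l1: ggaaaaccaccaTTTTATgtatagcttcta

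On mm9 these stretches lie at chr5:115904037-115904066 on the plus strand for Msi1, chr6:86474634-86474663 on the minus strand for Pcbp1, chr15:102329148-102329177 on the plus strand for Pcbp2, chr17:10400126-10400155 on the minus strand for Qk and chr11:118357668-118357697 on the minus strand for Rbfox3. The first of the pair from Tardbp lies at chr4:147991009-147991038 and the second at chr4:147987022-147987051, both on the minus strand, where chr7:29161953-29161982 for Zfp36 and chr12:81209027-81209056 for Zfp36l1 also lie. Positions are those of the array annotation, and the exon or untranslated region of a probe was not annotated here. Other elements of the same transcripts outside the probes were not searched. The stretches of Pcbp1 and Pcbp2 share a run of 24 letters, the longest run shared by probes of different genes among the 46, so signal from one of these mRNAs on the probe of the other cannot be told apart.

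More of the RNA-binding protein mRNAs were higher with CPEB2 IgG than were lower. In the limma fit over genes, each gene was represented by its brightest probe, and 22 of the 44 rose with CPEB2 IgG (adjusted p-value below 0.05), against 21.2% of the 19698 genes tested. Another 4 were lower, against 20.4% of all genes, and 18 did not pass the test. The 44 genes were brighter than most genes tested. Their median signal was 8359 (CPEB2 IgG) and 3702 (control IgG), against 346 and 345 for all genes. The part of signal level in these shares was not tested. The median log2 fold change, CPEB2 IgG over control IgG, was 0.84 for the 44 genes and -0.11 for all genes. Both experiments gave a log2 fold change above 0 in 29 of the 44 (65.9%), against 36.5% of all genes. They were both below 0 in 9 and differed in sign in 6, against 8509 and 3996 of the 19698 genes. The median of the 44 was 0.80 in experiment 1 and 0.99 in experiment 2.

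The 22 higher mRNAs ran from 0.94 for Caprin1 to 3.73 for Zfp36 on the log2 scale, where Zfp36 was not well above background on 1 control array and fell to 1.70 with normexp, a background correction that keeps dim signals above a floor, and the 4 lower ones were Fxr1, Pcbp3, Khsrp and Celf6. All fold changes are relative to the scaling of each array to its 75th percentile. Median centring moved the balance over all genes from 50.9% to 61.2% higher among the genes called, and among the 44 it left 24 higher and 2 lower. Every one of the 26 called genes kept its sign under every alternative setting in which it was fitted, and Zfp36 was not fitted where a probe had to be well above background on all 4 arrays. With no filter on dim probes 7 calls were lost, those of Tia1, Caprin1, Elavl1, Khsrp, Celf5, Celf6 and Qk, with adjusted p-values from 0.0513 for Celf5 to 0.0923 for Caprin1. With 2 arrays against 2, the smallest two-sided p of an exact permutation test is 0.333, and single genes rest on limma, which borrows the spread from all genes.

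**Figure D1:**
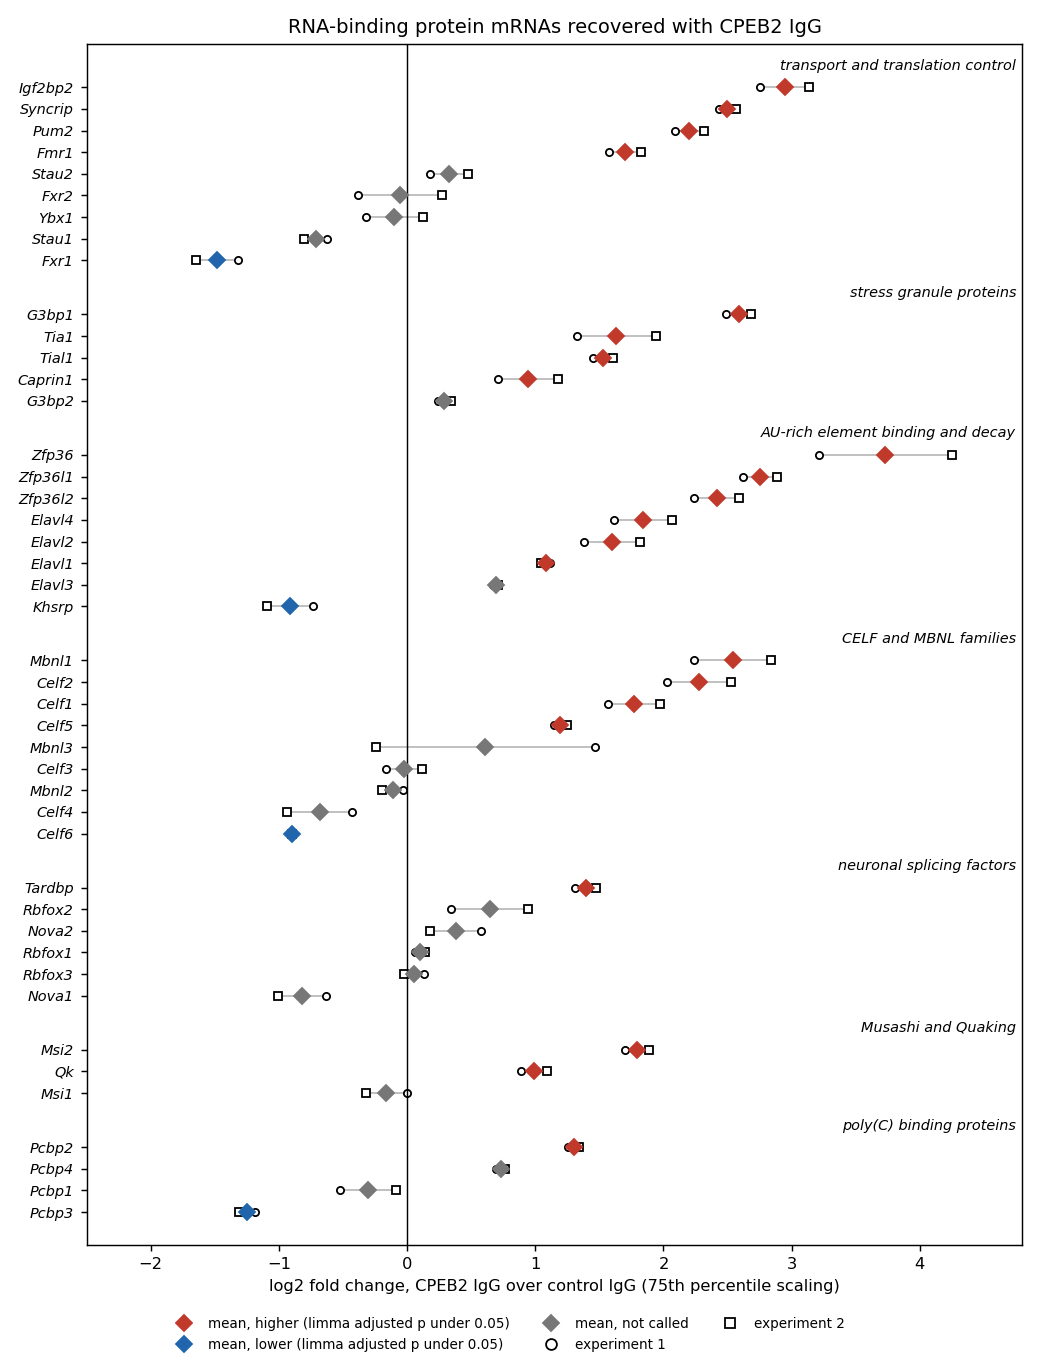
Log2 fold change of the 44 fitted genes, CPEB2 IgG over control IgG, grouped by role, with the mean of the 2 experiments as a diamond, coloured by the limma call over genes, and each experiment as an open symbol. The 22 red diamonds reach from 0.94 for Caprin1 to 3.73 for Zfp36, the 4 blue ones lie between -1.48 and -0.90, and 5 of the 6 neuronal splicing factors are gray.

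Among the 11 regulators of transport and translation, 9 were measured. Of these 4 were higher (44.4%) and 1 lower (11.1%), against 21.2% and 20.4% of all genes. Their median log2 fold change was 0.33. Pum2 encodes Pumilio 2, which binds the 3′ ends of mRNAs and represses their translation in dendrites. Its brightest probe (chr12:8756739-8756798) gave signals, before scaling and in arbitrary units, of 33648 and 33202 (CPEB2 IgG) against 8387 and 6780.2 (control IgG). Both CPEB2 IgG arrays were far above both control arrays. The log2 fold change was 2.20 ± 0.16 (n = 2, SD over experiments), a 4.6-fold enrichment (adjusted p = 0.00566 over genes), and the second probe, 666 bases further toward the 3′ end, gave 2.26 ± 0.31 (SE).

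The fragile X family did not move as 1 group. Fmr1 encodes FMRP, the polysome-bound translational repressor that is lost in fragile X syndrome, and its signals were 2275 and 3085 (CPEB2 IgG) against 811 and 884 (control IgG) at the brightest probe (chrX:65970891-65970950). The antibodies did not overlap, and the log2 fold change was 1.70 ± 0.18 (n = 2, SD over experiments) with an adjusted p of 0.00792. Its paralog Fxr1 had the lowest value of the 44 genes. The Fxr1 signals were 749 and 656 (CPEB2 IgG) against 1983 and 2085 (control IgG), with both CPEB2 IgG arrays below both control arrays. Its log2 fold change was -1.48 ± 0.23 (n = 2, SD over experiments), 2.79-fold less with CPEB2 IgG (adjusted p = 0.011 over genes), and a second probe 4891 bases upstream gave -1.40 ± 0.28 (SE). The third paralog, Fxr2, had signals of 9884 and 15226 (CPEB2 IgG) against 13623 and 12841 (control IgG). Its arrays overlapped, and its log2 fold change was -0.38 in experiment 1 and 0.27 in experiment 2, with a mean of -0.06 (adjusted p = 0.888) that turned positive under quantile normalization and median centring and was -0.68 (adjusted p = 0.0583) once log ratios were centred in bins of probe GC content (GC bin centring). The differences between the paralogs were not tested.

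Igf2bp2, the one member of its family that was measured, encodes a protein that stabilizes and localizes mRNAs. Its signals were 459 and 415 (CPEB2 IgG) against 72.0 and 48.1 (control IgG), without overlap. The log2 fold change was 2.95 ± 0.27 (n = 2, SD over experiments) (adjusted p = 0.00543 over genes), and 1.96 with normexp background correction. Syncrip, or hnRNP Q, travels with dendritic mRNA granules, and its signals were 8092 and 8968 (CPEB2 IgG) against 1588 and 1540.4 (control IgG). Its 4 arrays fell into 2 tight pairs, with a log2 fold change of 2.50 ± 0.09 (n = 2, SD over experiments) and an adjusted p of 0.00543. The Staufen proteins bind double-stranded parts of mRNAs and take part in the transport of these mRNAs along microtubules. Stau1 had signals of 278 and 253 (CPEB2 IgG) against 453 and 448 (control IgG), lower on both CPEB2 IgG arrays, with a log2 fold change of -0.71 ± 0.13 (n = 2, SD over experiments) that did not pass the test (adjusted p = 0.0671). It passed in 5 of the alternative settings, with -1.34 (adjusted p = 0.03) after GC bin centring. Stau2, the neuronal paralog, had a log2 fold change of 0.33 (adjusted p = 0.324) and values from 0.10 to 0.96 over its 4 probes. Ybx1, a cold shock protein that coats mRNAs, had -0.10 (adjusted p = 0.777), a value that turned positive under median centring, and -0.73 (adjusted p = 0.0474) with GC bin centring.

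Among the mRNAs of stress granule proteins, 4 of 5 (80%) were higher and none was lower at the brightest probe. Of all genes 21.2% were higher and 20.4% lower. The counts of the 5 were the same at an unadjusted p below 0.05 and in the fit with no block. All 5 were above 0 in both experiments, with a median log2 fold change of 1.53. G3bp1, the scaffold on which stress granules form, had signals of 14265 and 14758 (CPEB2 IgG) against 2688 and 2334 (control IgG). The CPEB2 IgG arrays stood well above the control arrays, and the log2 fold change was 2.59 ± 0.14 (n = 2, SD over experiments), or 6.01-fold (adjusted p = 0.00543 over genes). Its paralog G3bp2 had 0.29 ± 0.07 (n = 2, SD over experiments) and did not pass (adjusted p = 0.362), a value that turned negative with GC bin centring. With its probes averaged, G3bp2 was called lower (-0.87, adjusted p = 0.0441). Tia1 and Tial1 encode related proteins that stall translation under stress, with log2 fold changes of 1.63 (adjusted p = 0.0114) and 1.53 (adjusted p = 0.00945). The call of Tia1 was lost with no filter on dim probes (adjusted p = 0.0548), and that of Tial1 with its probes averaged (0.61, adjusted p = 0.0917). Caprin1, the partner of G3bp1, was near the threshold at 0.94 ± 0.34 (n = 2, SD over experiments) with an adjusted p of 0.0407. With its probes averaged, Caprin1 was at 0.52 and was not called (adjusted p = 0.142). Leaving out CPEB2 IgG replicate 2, control IgG replicate 1 or control IgG replicate 2 gave Caprin1 adjusted p-values of 0.0708, 0.0859 and 0.143, GC bin centring gave it a log2 fold change of 0.32, and the percentile over probes detected on all arrays an adjusted p of 0.0503.

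The binders of AU-rich elements had the highest median of the groups, 1.72. Of the 8, 6 were higher (75%) and 1 lower (12.5%), against 21.2% and 20.4% of all genes. The ZFP36 family recruits deadenylases to AU-rich mRNAs and so speeds their decay, and all 3 of its members were higher. Zfp36, or tristetraprolin, had signals of 71.8 and 384 (CPEB2 IgG) against 8.22 and 20.5 (control IgG). Both CPEB2 IgG arrays were above both control arrays, but the CPEB2 IgG arrays differed widely, and control IgG replicate 1 was not well above background. Its log2 fold change was 3.73 ± 0.73 (n = 2, SD over experiments) with an adjusted p of 0.00543. It was 1.70 (adjusted p = 0.00188) with normexp background correction and 2.72 (adjusted p = 0.0138) with GC bin centring. With single arrays left out it ranged from 2.52, without CPEB2 IgG replicate 2 and with no call (adjusted p = 0.0861), to 4.94 without CPEB2 IgG replicate 1, so its size and its place above Zfp36l1 and Igf2bp2 are uncertain. Zfp36l1 had signals of 8011 and 8366 (CPEB2 IgG) against 1381 and 1148 (control IgG), close within each antibody. Its log2 fold change was 2.75 ± 0.19 (n = 2, SD over experiments) (adjusted p = 0.00543 over genes). Zfp36l2 had a log2 fold change of 2.41 ± 0.25 (n = 2, SD over experiments) and an adjusted p of 0.00543.

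The ELAV (Hu) proteins bind similar U-rich stretches and stabilize mRNAs, and 3 of the 4 were higher. Elavl4, or HuD, had the largest value of these with 1.84 ± 0.32 (n = 2, SD over experiments) (adjusted p = 0.00767), followed by Elavl2 at 1.60 ± 0.31 (n = 2, SD over experiments) (adjusted p = 0.0101), which was 0.81 (adjusted p = 0.0522) with its probes averaged. The ubiquitous Elavl1, or HuR, had 1.08 ± 0.05 (n = 2, SD over experiments) (adjusted p = 0.0217), and without control IgG replicate 1 or 2 its adjusted p was 0.072 and 0.0694. Elavl3, or HuC, had 0.69 ± 0.03 (n = 2, SD over experiments) and did not pass (adjusted p = 0.0696), though it passed in 6 of the alternative settings. Khsrp, a decay-promoting KH domain protein, was the exception in the group. Its signals were 11149 and 7179.6 (CPEB2 IgG) against 19599.7 and 15528 (control IgG), with no overlap between the antibodies, and its log2 fold change was -0.91 ± 0.25 (n = 2, SD over experiments) (adjusted p = 0.0401). Its call was lost under quantile normalization (adjusted p = 0.0654), under median centring (-0.68, adjusted p = 0.101), without the block for the experiment (adjusted p = 0.0623), and without CPEB2 IgG replicate 2 (-0.59), control IgG replicate 1 (-0.77) or control IgG replicate 2 (-1.05).

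The CELF and MBNL families, which oppose each other on many alternative exons, were split. Of their 9 mRNAs 4 were higher, Celf1, Celf2, Celf5 and Mbnl1, and 1 was lower, Celf6. These are 44.4% and 11.1%, against 21.2% and 20.4% of all genes. Mbnl1, or muscleblind 1, had signals of 9341 and 15329.8 (CPEB2 IgG) against 2095 and 2172 (control IgG). The CPEB2 IgG arrays lay above the control arrays, with experiment 2 the higher, and the log2 fold change was 2.54 ± 0.43 (n = 2, SD over experiments) (adjusted p = 0.00562 over genes). Mbnl2 had -0.11 ± 0.12 (n = 2, SD over experiments) with an adjusted p of 0.735, a value that turned positive under median centring and GC bin centring. Mbnl3 was dim, it turned negative with GC bin centring, its experiments gave 1.46 in experiment 1 and -0.24 in experiment 2, and it did not pass (adjusted p = 0.337), whereas without control IgG replicate 2 its value was 1.37 with an adjusted p of 0.0349.

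Celf1 and Celf2, the broadly expressed members that also bind mRNA ends and promote decay, had log2 fold changes of 1.77 ± 0.29 (n = 2, SD over experiments) and 2.28 ± 0.35 (n = 2, SD over experiments), with adjusted p-values of 0.00796 and 0.00596. Celf5 had 1.19 ± 0.07 (n = 2, SD over experiments) (adjusted p = 0.017), which GC bin centring reduced to 0.57 (adjusted p = 0.104), and without control IgG replicate 2 its adjusted p was 0.0584. Celf3 had -0.02 (adjusted p = 0.949) and turned positive under median centring and GC bin centring, and Celf4 had -0.68 (adjusted p = 0.0955), passing in 3 of the alternative settings. Celf6 had signals of 532 and 595 (CPEB2 IgG) against 1049.7 and 1127 (control IgG), with both CPEB2 IgG arrays below the controls. Its log2 fold change was -0.90 in each experiment (adjusted p = 0.0352 over genes). Its call was lost under median centring (-0.67, adjusted p = 0.109) and without CPEB2 IgG replicate 1, control IgG replicate 1 or control IgG replicate 2, where the adjusted p was 0.0538, 0.0969 and 0.149.

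Of the 6 neuronal splicing factors 1 was higher and none lower at the brightest probe, with a median log2 fold change of 0.24. The share higher, 16.7%, was near the 21.2% of all genes, of which 20.4% were lower. In limma at an unadjusted p under 0.05, 1 was higher and 1, Nova1, lower, and the fit without the block for the experiment also gave 1 higher and none lower. Tardbp encodes TDP-43, which represses cryptic exons and regulates its own mRNA. Its brightest probe had signals of 20482 and 21513 (CPEB2 IgG) against 8758 and 7856 (control IgG), without overlap, and a log2 fold change of 1.39 ± 0.12 (n = 2, SD over experiments) (adjusted p = 0.0117 over genes). After GC bin centring it was 0.77 with an adjusted p of 0.0524. Rbfox1 and Rbfox3, the latter known as the neuronal marker NeuN, had 0.10 and 0.05 at their brightest probes, with adjusted p-values of 0.762 and 0.872, and both turned negative with the percentile taken over probes detected on all arrays, Rbfox3 also with no scaling and GC bin centring. Rbfox2 had 0.64 ± 0.42 (n = 2, SD over experiments) (adjusted p = 0.119), passed in 2 of the alternative settings and was 0.0183 with GC bin centring. With its probes averaged, Rbfox3 was called lower (-1.02, adjusted p = 0.0261).

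The NOVA proteins regulate exons of synaptic mRNAs. Nova2 had a log2 fold change of 0.38 ± 0.28 (n = 2, SD over experiments) (adjusted p = 0.278). Nova1 had signals of 239 and 172 (CPEB2 IgG) against 394 and 351 (control IgG) at its brightest probe, lower on both CPEB2 IgG arrays. Its log2 fold change of -0.82 ± 0.27 (n = 2, SD over experiments) missed the threshold (adjusted p = 0.0531) and passed in 8 of the alternative settings, and without CPEB2 IgG replicate 1 it was -1.06 (adjusted p = 0.0306).

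Musashi 2 and Quaking were higher, and Musashi 1 did not pass. The share higher was 66.7% of 3 genes, against 21.2% of all genes. Msi2, a translational regulator of progenitor cells, had a log2 fold change of 1.79 ± 0.13 (n = 2, SD over experiments) (adjusted p = 0.00709), and Msi1 had -0.16 ± 0.23 (n = 2, SD over experiments) (adjusted p = 0.629), a value that turned positive under median centring and GC bin centring. Qk, which regulates myelin mRNAs and splicing in glia, had 0.99 ± 0.15 (n = 2, SD over experiments) with an adjusted p of 0.0287. Without CPEB2 IgG replicate 2, control IgG replicate 1 or control IgG replicate 2 the adjusted p of Qk was 0.0521, 0.0673 and 0.124.

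The poly(C) binding proteins, KH domain proteins that stabilize mRNAs and regulate translation, gave 1 higher and 1 lower mRNA. Each is 25% of the 4 genes, near the 21.2% higher and 20.4% lower among all genes. Pcbp2 had a log2 fold change of 1.30 ± 0.06 (n = 2, SD over experiments) (adjusted p = 0.0135). Pcbp1, the intronless paralog whose probe shares the run of letters with that of Pcbp2, had -0.30 ± 0.31 (n = 2, SD over experiments) (adjusted p = 0.381), and GC bin centring gave it -0.93 (adjusted p = 0.0296). Pcbp3 had signals of 5476 and 3008 (CPEB2 IgG) against 13203 and 7583 (control IgG). Within each experiment the CPEB2 IgG array was the lower, and both lay below both controls. Its log2 fold change was -1.25 ± 0.09 (n = 2, SD over experiments) (adjusted p = 0.0152 over genes). Without the block for the experiment its adjusted p was 0.0671, and without CPEB2 IgG replicate 1, CPEB2 IgG replicate 2 or control IgG replicate 1 its log2 fold change was -1.68, -0.82 and -0.88 with no call. Pcbp4 had 0.73 ± 0.05 (n = 2, SD over experiments) and did not pass (adjusted p = 0.0607), though it passed in 7 of the alternative settings.

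**Figure D2:**
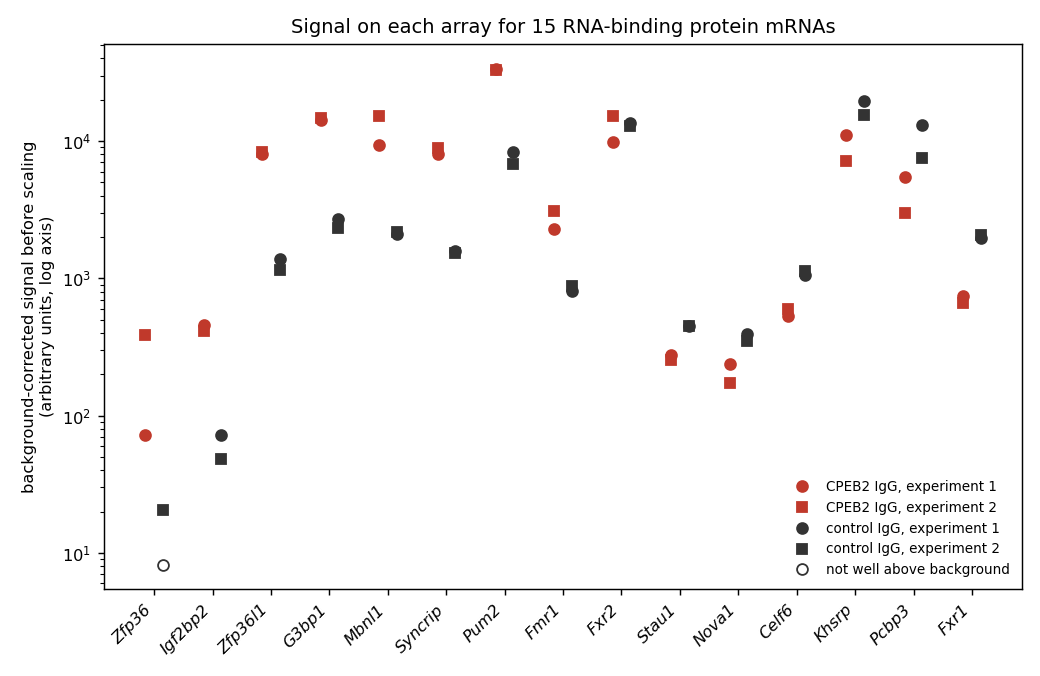
Signal on each array before scaling (arbitrary units, log axis) at the brightest probe of 15 genes, ordered by log2 fold change, with CPEB2 IgG in red, control IgG in black, experiment 1 as circles and experiment 2 as squares. From Zfp36 to Fmr1 both CPEB2 IgG arrays lie above both control arrays, Fxr2 overlaps, and from Stau1 to Fxr1 both CPEB2 IgG arrays lie below.

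The study asked for a raw signal above 1000, enrichment above 1.5-fold and a CPE in the 3′ untranslated region. Its CPE criterion was not applied here. A gene needed, at any probe, a mean fold change above 1.5 and a CPEB2 IgG signal above 1000 in at least 1 experiment. Of the 46 genes, 25 passed. The signal alone was reached by 36 of the 46, so 69.4% of those passed both, against 47.7% of the 7033 genes on the array that reached the signal. Of the 25, 19 were also higher in the limma fit over genes. The other 6 were Elavl3, Mbnl2, Pcbp4, Rbfox1, Rbfox2 and Stau2, of which Mbnl2, Rbfox1 and Stau2 had a brightest probe below 1.5-fold. The 3 mRNAs that were higher in the limma fit without reaching a signal of 1000 were Igf2bp2, Tia1 and Zfp36.

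Many of the genes had probes that disagreed, so the brightest probe did not stand for the whole transcript. Of the 90 fitted probes of the 46 genes, 33 were higher and 10 lower in the limma fit over probes, against 12.7% higher and 14.8% lower among all 41137 probes, and 47 did not pass. Adjusted p-values of the fit over probes are larger than those over genes, and the brightest probes of Qk, Caprin1, Khsrp and Celf6 passed over genes only, with 0.0519, 0.0677, 0.0694 and 0.0652 over probes. Of the 31 genes with at least 2 fitted probes, the probes of 13 differed in sign (41.9%), against 37.9% of 5415 such genes on the array. The range over probes exceeded 1 on the log2 scale in 18 of the 31 (58.1%), against 41.2%. The probe nearest the 3′ end was the highest in 20 (64.5%), against 67.7%, and the median difference of the 3′-most from the 5′-most probe was 0.69, against 0.48.

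**Figure D3:**
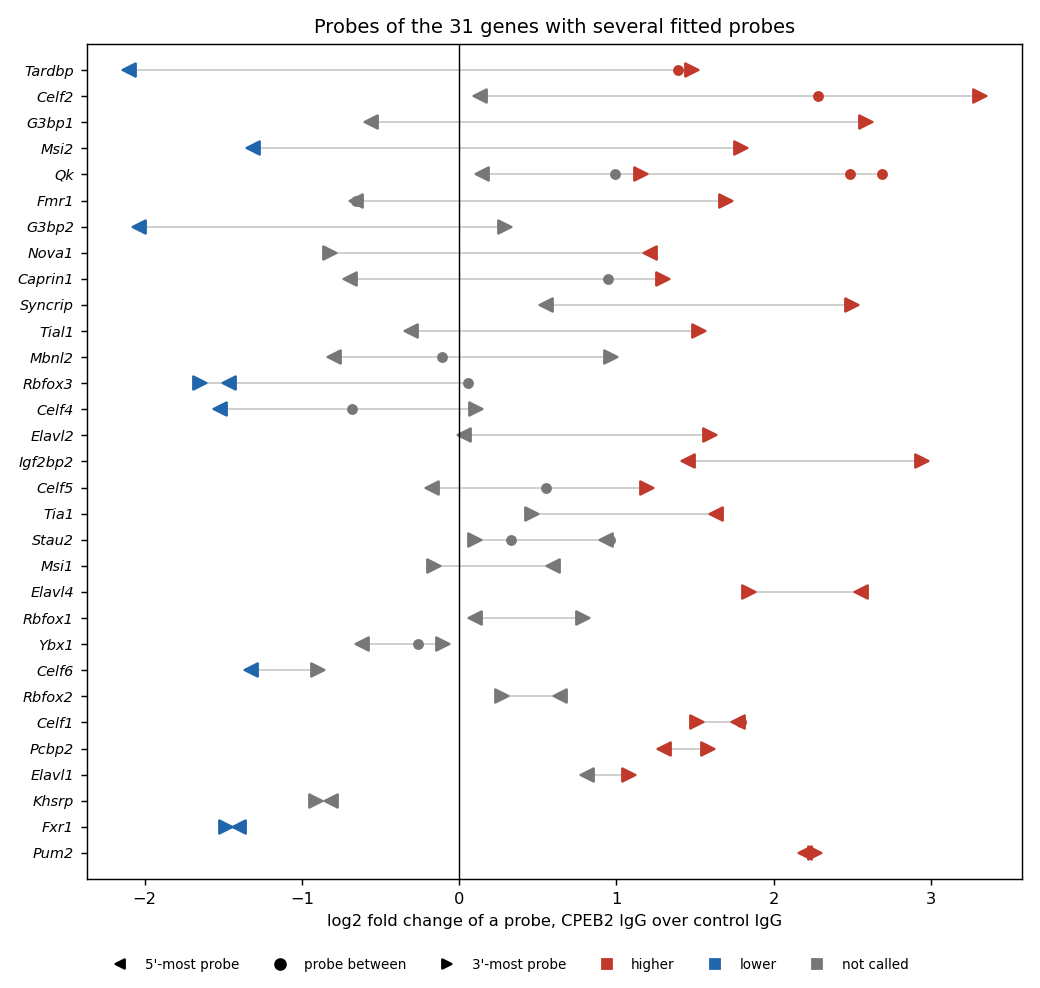
Log2 fold change of each fitted probe of the 31 genes with several, with the 5′-most probe pointing left, the 3′-most pointing right, other probes as circles, and colour giving the limma call over probes. In Tardbp, Celf2, G3bp1, Msi2 and Fmr1 the 3′-most probe lies at least 2.35 above the 5′-most, and in Nova1 it lies 2.04 below.

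In Fmr1 the call rested on 1 of 3 probes. Its 3′-most probe gave 1.70 ± 0.28 (SE) on the log2 scale (adjusted p = 0.0129 over probes). The pair of probes 22691 and 22171 bases upstream on the chromosome (chrX:65948200-65948259 and chrX:65948720-65948779) gave -0.65 ± 0.28 (SE) and -0.66 ± 0.28 (SE), neither of which passed. Signals at the first of them were 309 and 307 (CPEB2 IgG) against 537 and 471 (control IgG), and at the second 258 and 238 (CPEB2 IgG) against 433 and 381 (control IgG). At both probes each CPEB2 IgG array was below each control array, the reverse of the order at the 3′ probe. With all probes of Fmr1 averaged the log2 fold change was 0.13 (adjusted p = 0.679 over genes).

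Tardbp and Msi2 were the 2 genes with probes called in both directions (6.45% of the 31, against 2.36% of all such genes). The 5′-most Tardbp probe, which the annotation places across chr4:147991744-147992832, had signals of 61.7 and 76.2 (CPEB2 IgG) against 287 and 324 (control IgG). That is far lower with CPEB2 IgG, with a log2 fold change of -2.10 ± 0.28 (SE) and an adjusted p of 0.00835 over probes. The pair of probes closer to the 3′ end, both of which hold the letters TTTTAT shown above, gave 1.39 ± 0.28 (SE) and 1.48 ± 0.30 (SE). Signals at the 3′-most of them were 258 and 470.5 (CPEB2 IgG) against 120.3 and 140.0 (control IgG), above the controls on both CPEB2 IgG arrays. The 5′ probe of Msi2, 394375 bases upstream and annotated to another transcript, was dim at 30.5 and 15.4 (CPEB2 IgG) against 57.3 and 54.4 (control IgG). It was well above background on 3 arrays and gave -1.31 ± 0.35 (SE) (adjusted p = 0.043), against 1.79 ± 0.28 (SE) (adjusted p = 0.0112) at the 3′ probe, whose signals were 15418 and 13305 (CPEB2 IgG) against 5034 and 3657 (control IgG). Averaged over probes, Tardbp was at 0.26 (adjusted p = 0.421) and Msi2 at 0.24 (adjusted p = 0.469), while G3bp1 at 1.01 and Syncrip at 1.53 stayed called higher.

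The stress granule genes had the same order of probes apart from Tia1. In G3bp1 the upstream probe, 1043 bases from the 3′-most, had signals of 132 and 203 (CPEB2 IgG) against 234 and 267 (control IgG) and a log2 fold change of -0.56 ± 0.29 (SE), against 2.59 ± 0.28 (SE) at the 3′ probe. The upstream probes of G3bp1 and G3bp2 match at 37 of 49 aligned bases, and signal from one of these mRNAs on the probe of the other cannot be told apart there. In G3bp2 the upstream probe was lower with CPEB2 IgG. Its signals were 1017 and 1553 (CPEB2 IgG) against 5442 and 5257 (control IgG), and its log2 fold change was -2.04 ± 0.31 (SE) (adjusted p = 0.0105 over probes), whereas the 3′ probe, at 6524 and 7792 (CPEB2 IgG) against 5839.9 and 6256 (control IgG), gave 0.29 ± 0.28 (SE). Caprin1 rose from probe to probe, with -0.70, 0.94 and 1.30 from 5′ to 3′, and its 3′-most probe, at 2947 and 4357 (CPEB2 IgG) against 1509 and 1514 (control IgG), was called (adjusted p = 0.0292 over probes). The 5′-most Caprin1 probe, annotated to another transcript than the other probes, was at 112 and 125 (CPEB2 IgG) against 179 and 220.4 (control IgG). The middle one, the brightest, was at 4747 and 5755 (CPEB2 IgG) against 3083 and 2579.8 (control IgG), so the order of the arrays differed between these probes.

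Tial1 had -0.31 ± 0.28 (SE) upstream, with signals of 2398 and 2433 (CPEB2 IgG) against 3182 and 3028 (control IgG), and 1.53 ± 0.28 (SE) at its 3′ probe, with 6625 and 7253 (CPEB2 IgG) against 2575 and 2417 (control IgG). Tia1 ran the other way. Its brighter upstream probe, at 244 and 357 (CPEB2 IgG) against 103 and 94.7 (control IgG), gave 1.63 ± 0.31 (SE) (adjusted p = 0.0174 over probes), and the 3′ probe, at 185 and 157 (CPEB2 IgG) against 158 and 104 (control IgG), gave 0.46 ± 0.28 (SE) (adjusted p = 0.28).

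Celf2 climbed by 3.18 on the log2 scale over 5170 bases. Its probes gave 0.13, 2.28 and 3.31 from 5′ to 3′, with signals of 1907 and 1893 (CPEB2 IgG) against 1933 and 1676 (control IgG) at the first, 60575 and 79101 (CPEB2 IgG) against 15727 and 13919 (control IgG) at the second and 22580.3 and 34170.4 (CPEB2 IgG) against 3037 and 2776 (control IgG) at the third. The arrays overlapped at the first probe and were far apart at the others. Celf5 had the same order, from -0.17 through 0.55 to 1.19. Signals of Celf5 were 101 and 202 (CPEB2 IgG) against 133 and 209 (control IgG) at the 5′-most probe, where the experiments differed more than the antibodies, 2126 and 4670.4 (CPEB2 IgG) against 1557 and 3207 (control IgG) at the middle probe and 48063 and 48421 (CPEB2 IgG) against 23048 and 20778 (control IgG) at the 3′-most. Celf4 went from -1.52 ± 0.30 (SE) (adjusted p = 0.0202 over probes) at a dim upstream probe, with 29.9 and 22.9 (CPEB2 IgG) against 74.3 and 81.8 (control IgG), through -0.68 at its brightest, with 22080.5 and 15242 (CPEB2 IgG) against 31435 and 29658 (control IgG), to 0.11 at its 3′ probe, with 23371 and 22922 (CPEB2 IgG) against 23649 and 21079 (control IgG). Celf1 did not show this order, and its 3 probes gave 1.77, 1.79 and 1.51, all called higher.

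Mbnl2, not called at its brightest probe, went from -0.80 through -0.11 to 0.96, none of which passed over probes. Its signals were 856 and 641 (CPEB2 IgG) against 1162 and 1532 (control IgG) at the 5′-most probe, 9929 and 9969 (CPEB2 IgG) against 10727 and 11578 (control IgG) at the brightest and 1296 and 1740.3 (CPEB2 IgG) against 843 and 758 (control IgG) at the 3′-most, so CPEB2 IgG was below the controls at the first pair of probes and above them at the last. Elavl2 had 0.03 ± 0.28 (SE) upstream, with overlapping signals of 702 and 850.4 (CPEB2 IgG) against 797 and 775 (control IgG), and 1.60 ± 0.29 (SE) at its 3′ probe, with 4935 and 6894 (CPEB2 IgG) against 2010.2 and 1989 (control IgG). Syncrip had 0.55 ± 0.31 (SE) at 1083 and 1481 (CPEB2 IgG) against 966 and 830.0 (control IgG) upstream, where the antibodies were close, and 2.50 ± 0.28 (SE) at its brightest, 3′-most probe. Both Igf2bp2 probes were called higher, the dimmer one at 96.9 and 77.7 (CPEB2 IgG) against 34.3 and 31.4 (control IgG) with 1.46 ± 0.28 (SE) and the 3′ one with 2.95 ± 0.29 (SE).

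Qk, with 5 probes over 13520 bases, peaked in the middle. From 5′ to 3′ its log2 fold changes were 0.15, 0.99, 2.69, 2.48 and 1.16, and the last 3 were called higher over probes. The third probe, at 7045 and 7474 (CPEB2 IgG) against 1352 and 1007 (control IgG), and the fourth, at 2006 and 2076 (CPEB2 IgG) against 471 and 305 (control IgG), separated the antibodies most. At the first probe, with 6771 and 5232 (CPEB2 IgG) against 6276 and 4959.6 (control IgG), each CPEB2 IgG array was above the control array of its own experiment by little. The brightest was the second, at 32044 and 31504 (CPEB2 IgG) against 18347 and 15002 (control IgG), and the last, on another transcript record, was at 289 and 365 (CPEB2 IgG) against 124 and 184 (control IgG). The fourth probe holds the CPE letters shown above.

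Nova1, Rbfox3 and Msi1 did not have their highest value at the 3′ end. The upstream Nova1 probe, at 172 and 291 (CPEB2 IgG) against 91.0 and 110.1 (control IgG), was higher with CPEB2 IgG, with 1.22 ± 0.29 (SE) (adjusted p = 0.0333 over probes), while the probe 2170 bases downstream was at -0.82 ± 0.29 (SE). Rbfox3 had its 2 lower calls on either side of the brightest probe. The upstream one, which holds the CPE letters, had signals of 3440.0 and 3780.2 (CPEB2 IgG) against 9825 and 10866 (control IgG) and a log2 fold change of -1.47 ± 0.28 (SE) (adjusted p = 0.0177). The 3′-most, at 723 and 729 (CPEB2 IgG) against 2188 and 2553 (control IgG), gave -1.65 ± 0.28 (SE) (adjusted p = 0.0138). Between them the brightest probe, which overlaps the 3′-most by 1 base, was at 28862 and 24654 (CPEB2 IgG) against 27948 and 25466 (control IgG) and 0.05 ± 0.28 (SE). Msi1 had 0.60 ± 0.32 (SE) at a dim upstream probe, with 75.4 and 96.8 (CPEB2 IgG) against 69.3 and 49.4 (control IgG), and -0.16 ± 0.29 (SE) at its 3′ probe, with 1162 and 1343 (CPEB2 IgG) against 1231 and 1707 (control IgG), and neither passed.

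Pum2, Fxr1, Khsrp, Elavl1, Pcbp2 and Celf1 had probes that lay within 0.28 of each other on the log2 scale. In these genes the choice of probe did not alter the sign. The fitted probes of Caprin1, Celf2, Celf4, G3bp2, Msi2, Qk, Rbfox2, Rbfox3, Stau2, Syncrip, Tardbp and Ybx1 did not all share a transcript record. The array annotation does not say which probes share an exon or a 3′ end, and the parts of transcript isoform, alternative ends and labelling in the differences between probes were not tested.

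The log2 fold change of a probe also moved with its base composition. Over the 90 fitted probes, Pearson's r between GC content and log2 fold change was -0.47 (Spearman's rho -0.48), and over 26710 probes with a gene symbol it was -0.36 (rho -0.37). These are descriptions across probes of the same 4 arrays, and probes are not independent replicates. The probes of the RNA-binding protein genes had a median GC content of 38.3%, against 41.7% for all. At a GC content of 35%, the commonest value among them, the median was 1.19 over 33 of their probes and 0.46 over 6166 probes. At 45% it was -0.31 over 17 of their probes and -0.30 over 5791 probes. Of the 90, 58 (64.4%) lay above the median of all gene probes with the same GC content. With log ratios centred within bins of GC content, 19 of the 22 higher genes were still called higher, Celf5, Caprin1 and Tardbp were not, all 4 lower genes were still called lower, and the totals were 21 higher and 8 lower. It lowered the value of 13 of the 22 by more than 1.5-fold. The part of GC content in the differences was not tested further.

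**Figure D4:**
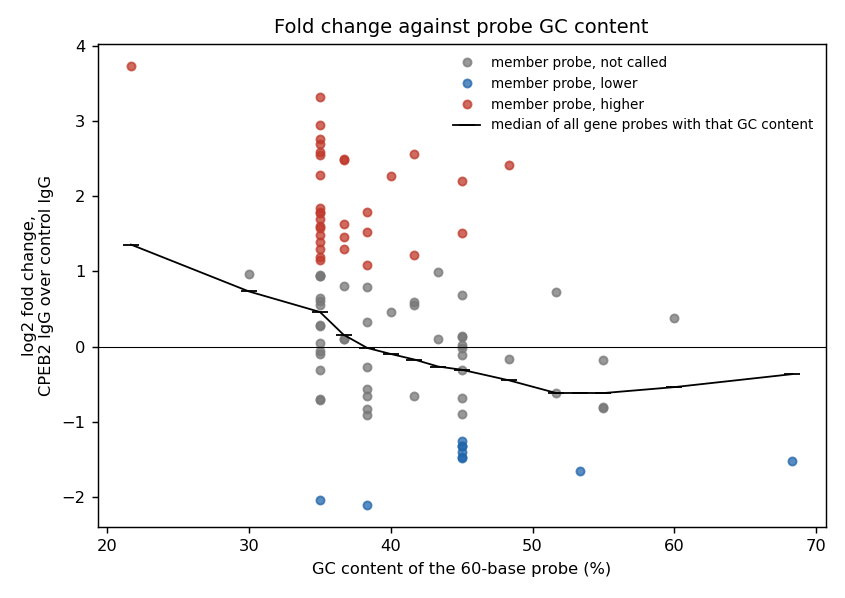
Log2 fold change against GC content (%) for the 90 fitted probes of the RNA-binding protein genes, coloured by the limma call over probes, with the median of all gene probes of the same GC content as a black line. The line falls from 1.36 at 21.7% to -0.61 at 55%, and most of the probes called higher lie at 35%, where they spread up to 3.31.

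Of the 9 probes with the CPE letters, 6 were higher with CPEB2 IgG, those of Zfp36, Zfp36l1, Qk and Pcbp2 and both of Tardbp, against 33.1% of the 1400 fitted gene probes with the letters. Of the 81 fitted probes without the letters over all the RNA-binding protein genes, 33.3% were higher, and of all gene probes without them 15.6%. The Rbfox3 probe was lower, and those of Msi1 and Pcbp1 did not pass. The median log2 fold change of the 9 probes was 1.39, against 0.55 for those 81 probes without the letters. Among all gene probes the medians were 0.53 with the letters (1400 probes) and -0.17 without (25310 probes). Such probes are AT-rich by construction, with a median GC content of 35%. After GC bin centring the medians for the RNA-binding protein genes were 0.85 with the letters and 0.26 without, and for all gene probes 0.16 and -0.21. Neither difference was tested, and a probe of 60 bases shows only a small part of a transcript.

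A second list of 54 RNA-binding protein genes outside these families, of which 53 were measured, gave 24 higher and 4 lower mRNAs in the fit over genes. These are 45.3% and 7.55% of the 53, against 50% and 9.09% of the 44 genes and 21.2% and 20.4% of all genes. The median log2 fold change was 0.76 in the second list and 0.84 over the 44 genes. The median signal of the second list, 2424 (CPEB2 IgG) and 1286 (control IgG), was also above that of all genes. The highest were Rbms2 at 3.19 (adjusted p = 0.00543), Ptbp1, the splicing repressor of non-neuronal cells, at 2.73 (adjusted p = 0.00543), and Unkl at 2.69 (adjusted p = 0.0061). Among the lower ones were Tnrc6b, a GW182 protein of the microRNA pathway, at -1.36 (adjusted p = 0.0145) and Hnrnpk at -0.97 (adjusted p = 0.031). The difference between the lists was not tested.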

How the data were processed

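RNA from immunoprecipitates was amplified, labelled with Cy3 and hybridized to 1-color Agilent SurePrint G3 Mouse GE 8x60K arrays. The authors deposited Agilent Feature Extraction 10.5.1.1 output, background-corrected intensities per spot with no scaling between arrays. Probe annotation is on mm9.

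Spots that the software marked (non-uniform, population outlier) were removed, duplicate spots were averaged on the log2 scale, and 66 of 55681 probes lacked a value on some array and were not used. The 75th percentile set the scale of each array. limma 3.58.1 in R 4.3.3, with the experiment as a block, was fitted to the brightest probe of each of 19698 genes well above background on at least 2 of 4 arrays, and separately to 41137 probes, with Benjamini-Hochberg adjustment within each fit and a threshold of 0.05. The fit was tested on simulated data, where it recovered the fold changes and called most changed genes when many genes changed, but no changed gene when few did. The block follows the division of the lysate, and deviations of paired arrays correlated at 0.20. The p-values cover 2 experiments whose animals are not described. With 1 residual degree of freedom, they rest largely on the spread borrowed from all genes. Celf6, with an SD of 0.0005 between experiments on the log2 scale, had an SE of 0.229. Python 3.11.15 with pandas 2.3.3, numpy 2.4.6 and scipy 1.17.1 did the rest. Of 90 probes of the 46 genes with an NM accession, 89 were found in the RefSeq table, all with the same symbol.

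The genes and lists, the tests and the alternatives were chosen with earlier results of these data known. Signals on each array were given for Pum2, Fmr1, Fxr1, Fxr2, the 6 highest and 6 lowest genes, and genes whose fitted probes differed in sign or by over 1 on the log2 scale. From the second list, the 3 highest and 3 lowest genes were to be named, and 1 of them is not reported here. Alternatives were normexp background correction (offset 50), median centring, quantile normalization, no scaling, another percentile, centring in 10 GC bins, keeping marked spots, an intensity trend, no block, averaged probes, stricter and no filtering of dim probes, other thresholds, and arrays or experiments left out. With single arrays left out, the fit had no block, and a lone array was assumed to vary like the other group.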

Additional observations from a re-analysis of the deposited data

How the results depend on the processing

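The counts of higher mRNAs stayed within a factor of 1.5 of those reported under every alternative at gene level, with 15 to 25 for the 46 genes. Leaving out single arrays gave 19 to 22, and of the other RNA-binding protein genes 18 to 27. The count of lower mRNAs, 4, was less stable. It was 2 with median centring and with no filter on dim probes, 7 with an intensity trend and with normexp background correction, 8 with GC bin centring, and 1 to 4 with single arrays left out. The lower count of the other RNA-binding protein genes, also 4, was 1 with median centring, 9 with normexp background correction, 8 with an intensity trend, 8 with probes detected on all arrays, 0 with no filter on dim probes, and 0 to 4 with single arrays left out, being 0 without control IgG replicate 1. In these limma fits with 0 calls, 7 and 3 were lower at an unadjusted p under 0.05. In the limma fit over probes with no filter on dim probes, 0 probes of the 46 genes were called higher and 0 lower, against 33 and 10, with 41 and 17 at an unadjusted p under 0.05 and a smallest adjusted p of 0.0961. The cause was not tested, though 55615 probes were then tested in place of 41137. The median log2 fold change of 0.84 was 1.06 with median centring, 0.52 with the mean of probes, and 0.80 to 0.99 with an array or an experiment left out. The scaling moved the median of all genes by 0.13 with quantile normalization, 0.23 with median centring and -0.11 with the percentile over probes detected on all arrays. Median centring and that percentile shift each array as a whole, so the list stayed 0.95 above the median of all genes by construction. It lay 0.88 above with quantile normalization, 0.79 with no filter on dim probes and 0.65 with the mean of probes. The count past the fold change and signal thresholds, 25, was 19 with a mean fold change above 2 and between 22 and 26 otherwise.

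Fitting without the replicate block gave 23 higher and 3 lower genes and 34 higher and 9 lower probes, with Khsrp and Pcbp3 lost and Stau1 and Pcbp4 gained. The blocked fit is the one reported because the lysate was divided between the antibodies.

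The log2 fold changes that changed sign belonged to 10 genes, none of them called in the reported fit. Fxr2 was 0.0924 with quantile normalization, 0.17 with median centring and -0.38 to 0.27 with arrays or experiments left out. Celf3 was 0.20 with median centring, 0.11 with GC bin centring and -0.17 to 0.12 with arrays or experiments left out. Nova1 was 0.20 with the mean of probes. Rbfox1 was -0.00939 with the percentile over probes detected on all arrays, where Rbfox3 was -0.0546. Rbfox3 was also -0.000188 with no scaling, -0.57 with GC bin centring, -1.02 with the mean of probes and -0.0602 to 0.17 with arrays or experiments left out. Msi1 was 0.066 with median centring, 0.14 with GC bin centring, 0.22 with the mean of probes and -0.43 to 0.11 with arrays or experiments left out. G3bp2 was -0.33 with GC bin centring and -0.87 with the mean of probes, where both G3bp2 and Rbfox3 were called lower. Mbnl2 was 0.12 with median centring, 0.0215 with GC bin centring and 0.0189 with the mean of probes. Mbnl3 was -0.0149 with GC bin centring and -0.24 to 1.46 with arrays or experiments left out. Ybx1 was 0.13 with median centring and -0.32 to 0.12 with arrays or experiments left out. Averaging the probes also ended the calls of Fmr1, Elavl2, Celf5, Msi2, Tial1, Caprin1 and Tardbp. The cause of these changes was not tested. Signal over background limits Zfp36, Mbnl3 and the upstream Msi2 probe, each well above background on 3 arrays, and 4 arrays limit the precision of every value.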
